A study of Mus musculus with 8 samples.

Results

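The genes described here are 38 members of de novo lipogenesis and triglyceride synthesis, chosen by name and matched by symbol among the 55487 genes counted in mouse liver. All 38 passed the filter on low counts, which left 13400 genes for testing. They fall into 6 steps, which are 5 regulators, 6 genes of acetyl-CoA and NADPH supply, 3 of fatty acid synthesis, 5 of elongation, 4 of desaturation and 15 of esterification.

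Liver RNA was sequenced from 4 Control mice, numbered 154, 159, 181 and 193, and from 4 Mc1r LKO mice, numbered 141, 156, 157 and 182. Control mice were age-matched and carried the floxed Mc1r fl/fl alleles alone, and Mc1r LKO mice came from crossing Mc1r fl/fl with Alb Cre/+ mice, so that albumin-driven Cre deletes the melanocortin 1 receptor gene in hepatocytes but not in the other cells of the liver. All were males that received a cholesterol-rich Western diet for 12 weeks from 8 weeks of age and were fasted for 4 hours before collection of the whole liver. The comparison asks how hepatocyte loss of the receptor changes the liver transcriptome under this diet.

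Hepatocytes turn surplus carbohydrate into fat. Citrate leaves the mitochondria, is cleaved to cytosolic acetyl-CoA, carboxylated to malonyl-CoA and built into palmitate with NADPH, after which the chain is elongated, desaturated and esterified onto glycerol 3-phosphate to give triglyceride. The transcription factors SREBP-1c (encoded by Srebf1) and ChREBP (encoded by Mlxipl), which respond to insulin and to glucose metabolites, are the textbook activators of these genes.

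Between 10773151 and 24763375 read pairs were counted on genes per mouse, and levels are given as CPM, counts scaled to the same library size in every mouse. Mc1r itself had 0 counts in all 8 mice, which allows at most 3 counts or 0.121 to 0.278 CPM in a mouse, so the genotype could not be checked in these libraries. Hepatocyte markers were abundant in every mouse, with a summed level of 88954 to 106459 CPM in Control and 95891 to 122982 CPM in Mc1r LKO mice. Mouse 182 held the highest hepatocyte sum and the lowest sums of Kupffer cell, sinusoidal endothelial, stellate and adipocyte markers. In whole liver, fewer cells of a type and less RNA per cell cannot be told apart.

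The 38 members took between 4.36% (mouse 182) and 7.84% (mouse 154) of all counts of a mouse, most of it through 1 gene. Scd1, the stearoyl-CoA desaturase that makes oleate and palmitoleate, had a mean level of 22219 TPM (a scale that also divides by gene length) over the 8 mice and held between 3.16% and 5.65% of all counts. It was followed by Elovl5, an elongase of polyunsaturated fatty acids (1598 TPM), Fads2, the delta-6 desaturase (1010 TPM), Thrsp, a lipogenic regulator (996 TPM), and Fasn, fatty acid synthase (590 TPM). The spread over mice was wide beside these steps, and Fads2 (702 to 1175 TPM) and Thrsp (634 to 1517 TPM) could not be ordered. Lpin3 (4.08 TPM), Scd2 (4.17 TPM), Gpat3 (8.11 TPM) and G6pdx (8.29 TPM) were the least abundant members. Scd1 exceeded Scd2, its close paralog, by 3207-fold to 15170-fold in TPM within a mouse, and reads common to the 2 genes may have been lost to the counting or split between them.

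**Figure D1:**
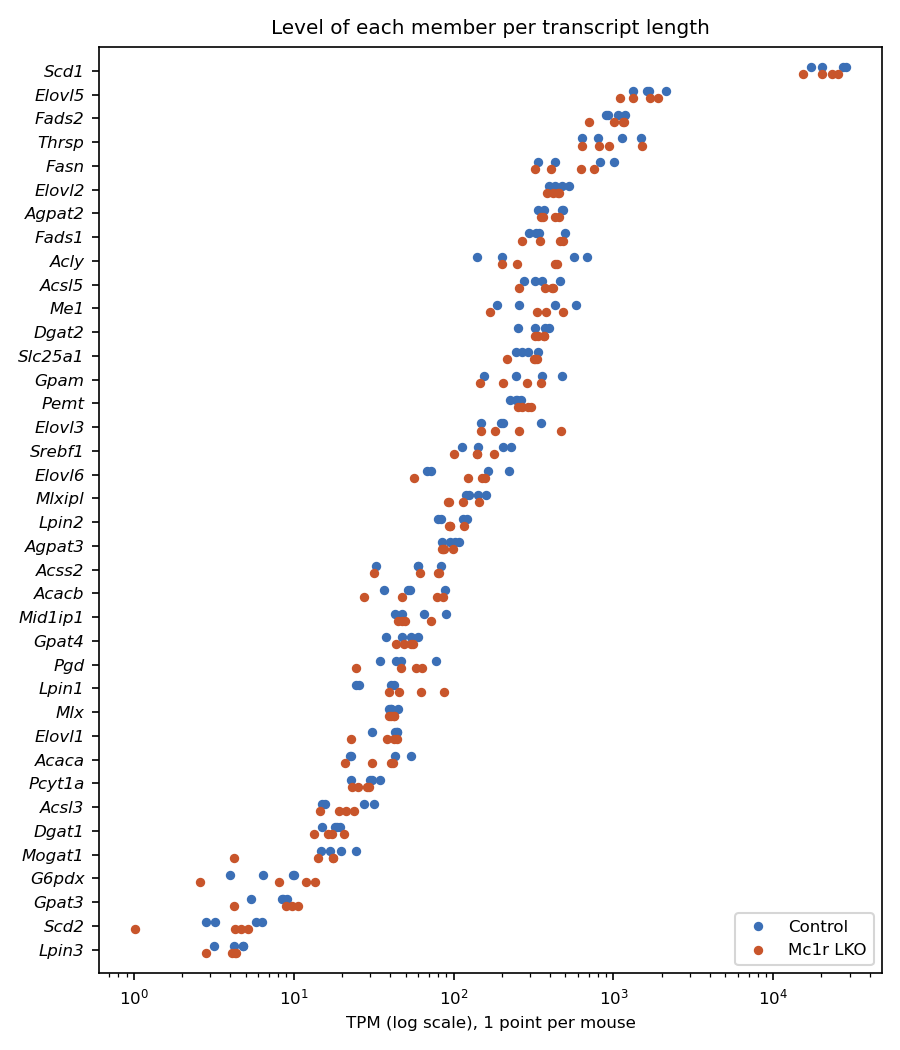
Level of each member in TPM on a log axis, with 1 point per mouse (blue Control, orange Mc1r LKO). Scd1, with a mean of 22219 TPM, stands apart from all other members, and the points of both genotypes overlap in most rows.

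No member passed the adjusted threshold between the genotypes. With edgeR's quasi-likelihood test, 0% of the 13400 genes had a Benjamini-Hochberg adjusted p under 0.05, and the smallest adjusted p was 0.118 over all genes and 0.734 among the members. DESeq2 called 17 genes and the likelihood ratio test of edgeR 8 at the adjusted threshold, none of them a member. A looser rule, an unadjusted p under 0.05 together with a log2 fold change of 0.25 or more in size, called 711 genes. Under it 2 members (5.26%) were called beside 5.31% of all genes, a share near the background that is no result about the members. Both called members, Lpin1 and Pemt, were higher in Mc1r LKO mice, as were 2.64% of all genes. In 1 member, Pemt, each Mc1r LKO value exceeded each Control value in CPM, as in 2.63% of all genes. In 0 members were all Mc1r LKO values below. The share of all genes in that direction was not counted, so this is no result about the members.

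The members were evenly divided in direction. The fold change of Mc1r LKO over Control was above 1 in 19 members and below 1 in 19, with a median log2 fold change of -0.0011 beside -0.011 over all genes tested. The median by step was -0.10 for regulators, 0.075 for acetyl-CoA and NADPH supply, -0.013 for synthesis, -0.043 for elongation, 0.0031 for desaturation and 0.023 for esterification. A missed threshold does not show that values were alike. The 95% interval of the fold change stayed within 1.5-fold in both directions for 17 members and within 2-fold for 31, leaving Acly, G6pdx, Elovl3, Scd2, Gpam, Lpin1 and Mogat1 with wider intervals.

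**Figure D2:**
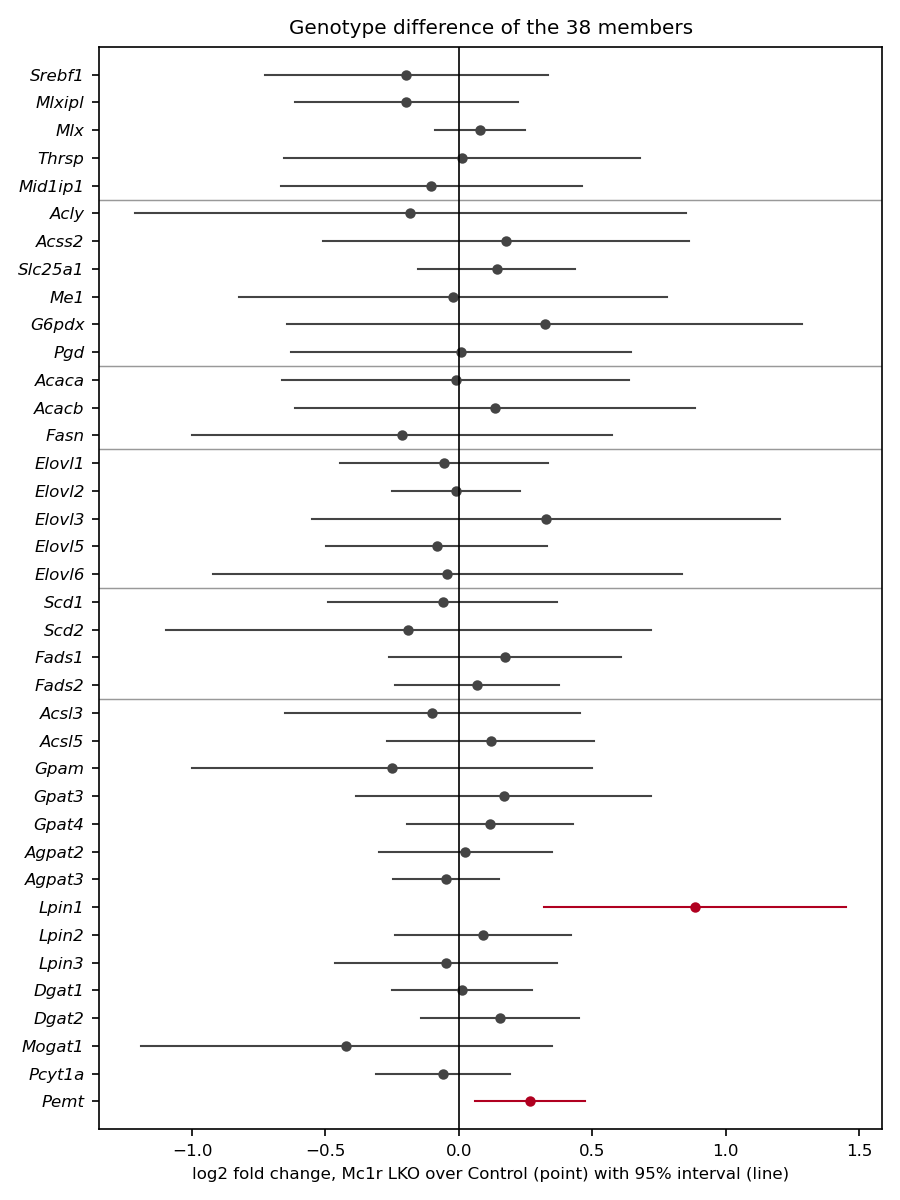
Log2 fold change of Mc1r LKO over Control for each member (points) with its 95% interval (lines), by step from regulators at the top to esterification at the bottom. Red marks Lpin1 and Pemt, the 2 members past the looser rule, neither of which passed the adjusted threshold.

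Values in the following paragraphs are TMM-normalized CPM, given in the order of mice 154, 159, 181 and 193 for Control and 141, 156, 157 and 182 for Mc1r LKO, and log2 fold changes are of Mc1r LKO over Control. Among the regulators, Srebf1, which encodes SREBP-1 and is counted here over its 1a and 1c transcripts together, stood at 312, 273, 538 and 442 CPM in Control and at 330, 330, 242 and 463 CPM in Mc1r LKO mice. Mice 181, 193 and 182 were high in Srebf1, and the genotypes overlapped (log2 fold change -0.20, SE 0.24, adjusted p = 0.917). Of its counted bases, 1.17% also belong to the microRNA gene Mir6922 on the same strand. Mlxipl, which encodes ChREBP in isoforms that gene counts do not separate, stood at 258, 338, 368 and 264 CPM in Control and at 216, 268, 218 and 369 CPM in Mc1r LKO mice. Mouse 182 was the highest of all 8 and the other 3 Mc1r LKO mice lay between 216 and 268 CPM (log2 fold change -0.20, SE 0.19, adjusted p = 0.897). Leaving out 1 mouse moved the log2 fold change of Mlxipl between -0.39 (without mouse 182) and -0.10 (without mouse 181). The unadjusted p in edgeR was 0.0244 without mouse 182 and 0.635 without mouse 181.

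The other 3 regulators did not separate the genotypes. Mlx, the dimer partner of ChREBP, was the steadiest member, between 31.5 and 36.5 CPM over the 8 mice. Thrsp (Spot 14), a thyroid hormone-responsive lipogenic protein, ranged from 534 CPM in Control mouse 193 to 1395 CPM in Mc1r LKO mouse 156, with a log2 fold change of 0.01 (SE 0.30). Mid1ip1, the Spot 14-related protein that promotes polymerization of acetyl-CoA carboxylase, stood at 35.9, 43.7, 79.9 and 53.1 CPM in Control and at 42.0, 44.3, 40.7 and 71.1 CPM in Mc1r LKO mice. Its high values were those of mouse 181 among Control and of mouse 182 among Mc1r LKO mice, 2 of the 3 mice that were high in Srebf1.

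RefSeq gives the starts of 31 members in build GRCm38.p6. Elovl3, Scd1, Scd2, Fads1, Gpat4, Dgat1 and Dgat2 had no entry. The 250 bases before each start were searched on both strands for a sterol regulatory element (TCACNCCAC, the letters SREBP proteins are known to bind), an E-box (CACGTG, bound by USF factors and the core of the carbohydrate response element) and an inverted CCAAT box (ATTGG, bound by NF-Y). The sterol regulatory element was found before 2 members (6.45%, Mlxipl and Pcyt1a) beside 1.22% of 27025 genes, the E-box before 5 (16.1%) beside 6.86%, and the inverted CCAAT box before 17 (54.8%) beside 37.5%. Besides these 3 motifs, the same search found a GC box (GGGCGG, not marked below) before 19 members (61.3%) beside 35.4% of genes. The exact letters of an LXR element were found before 0 members, beside only 4 of 27025 genes (0.0148%). A pattern this rare cannot show whether the members lack LXR elements. A match is a description of the letters, not a site. The windows before 2 starts of Mlxipl are shown because this regulator holds all 3 motifs between them, and those of Fasn, Gpam, Acly and Acaca because the last 3 followed Fasn most closely across mice. Every window RefSeq gives for these 5 genes is shown. Each runs 5′ to 3′ toward the start, in capitals where 1 of the 3 motifs matches on either strand.
Mlxipl chr5:135089640-135089889, plus strand: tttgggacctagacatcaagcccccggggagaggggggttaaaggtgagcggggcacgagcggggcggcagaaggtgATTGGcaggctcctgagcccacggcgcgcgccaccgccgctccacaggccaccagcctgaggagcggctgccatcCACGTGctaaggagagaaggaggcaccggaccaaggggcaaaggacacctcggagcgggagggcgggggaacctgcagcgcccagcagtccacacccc
Mlxipl chr5:135106641-135106890, plus strand: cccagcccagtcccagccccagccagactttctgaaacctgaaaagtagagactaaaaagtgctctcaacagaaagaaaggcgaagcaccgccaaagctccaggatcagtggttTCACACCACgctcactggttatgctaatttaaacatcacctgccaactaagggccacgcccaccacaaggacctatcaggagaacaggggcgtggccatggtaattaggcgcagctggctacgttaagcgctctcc
Fasn chr11:120824548-120824797, minus strand: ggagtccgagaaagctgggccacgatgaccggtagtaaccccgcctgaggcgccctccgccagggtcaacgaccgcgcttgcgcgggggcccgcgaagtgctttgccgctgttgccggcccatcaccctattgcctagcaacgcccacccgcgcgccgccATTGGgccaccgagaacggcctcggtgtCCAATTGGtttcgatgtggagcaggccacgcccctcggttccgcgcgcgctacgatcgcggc
Gpam chr19:55127239-55127488, minus strand: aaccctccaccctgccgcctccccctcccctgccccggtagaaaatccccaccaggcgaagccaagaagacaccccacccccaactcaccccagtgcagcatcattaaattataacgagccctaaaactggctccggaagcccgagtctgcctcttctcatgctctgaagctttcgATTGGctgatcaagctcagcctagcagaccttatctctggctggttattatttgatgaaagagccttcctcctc
Gpam chr19:55099478-55099727, minus strand: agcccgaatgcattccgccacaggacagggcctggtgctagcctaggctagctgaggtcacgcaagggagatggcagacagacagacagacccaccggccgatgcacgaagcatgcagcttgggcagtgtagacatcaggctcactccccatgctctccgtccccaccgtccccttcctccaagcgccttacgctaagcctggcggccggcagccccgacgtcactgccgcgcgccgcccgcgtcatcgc
Acly chr11:100528001-100528250, minus strand: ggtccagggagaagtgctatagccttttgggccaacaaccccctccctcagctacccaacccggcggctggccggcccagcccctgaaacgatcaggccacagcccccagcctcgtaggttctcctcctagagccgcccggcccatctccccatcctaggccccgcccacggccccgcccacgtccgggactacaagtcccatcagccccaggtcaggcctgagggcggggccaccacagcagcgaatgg
Acaca chr11:84195188-84195437, plus strand: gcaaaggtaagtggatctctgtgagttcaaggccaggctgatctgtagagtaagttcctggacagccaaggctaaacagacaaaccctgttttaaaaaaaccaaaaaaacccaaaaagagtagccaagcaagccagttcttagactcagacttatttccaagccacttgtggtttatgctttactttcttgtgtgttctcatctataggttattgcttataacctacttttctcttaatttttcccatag
The first Mlxipl window holds an E-box and an inverted CCAAT box, and the other a sterol regulatory element. The Fasn window holds 3 inverted CCAAT boxes, of which a pair overlaps, and the first Gpam window 1. The second Gpam window and those of Acly and Acaca hold none of the 3 motifs. The Acaca window lies inside the span of the counted gene (chr11:84129672-84401651), and the bases before the outer start of that span were not searched. The second windows of Mlxipl and Gpam likewise lie inside their gene spans.

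Genes of acetyl-CoA and NADPH supply varied more between mice than between genotypes. Acly, ATP citrate lyase, which cleaves cytosolic citrate to acetyl-CoA, ranged from 283 CPM in Control mouse 193 to 1403 CPM in Control mouse 154, a ratio of 4.96 between 2 mice of the same genotype. The 4 Mc1r LKO mice lay between these, from 489 to 995 CPM (log2 fold change -0.18, SE 0.46). Me1, the cytosolic malic enzyme that yields NADPH, followed the same order at its ends, with 278 CPM in mouse 193 and 878 CPM in mouse 154 (log2 fold change -0.02, SE 0.36). Acss2, cytosolic acetyl-CoA synthetase, had a log2 fold change of 0.18 (SE 0.31) and Slc25a1, the mitochondrial citrate carrier, of 0.14 (SE 0.13). Of the pentose phosphate enzymes that yield NADPH, G6pdx ranged from 3.68 to 17.5 CPM (log2 fold change 0.32, SE 0.43) and Pgd from 72.9 to 194 CPM (log2 fold change 0.01, SE 0.29). Mouse 182 was the lowest of all 8 in both pentose phosphate enzymes and in Slc25a1.

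The enzymes of fatty acid synthesis were each high in some mice and low in others of the same genotype. Fasn (chr11:120805846-120824547, minus strand), which builds palmitate, stood at 4297, 2031, 3769 and 1419 CPM in Control and at 1863, 3480, 2945 and 1643 CPM in Mc1r LKO mice. Each genotype thus held 2 mice at or above 2945 CPM and 2 at or below 2031 CPM, and the log2 fold change was -0.21 (SE 0.35, adjusted p = 0.938). Leaving out 1 mouse moved it between -0.43 (without mouse 193) and 0.05 (without mouse 154). Acaca, acetyl-CoA carboxylase alpha, the committed step that makes malonyl-CoA, stood at 362, 169, 306 and 148 CPM in Control and at 220, 299, 294 and 166 CPM in Mc1r LKO mice. The same mice were high and low as for Fasn, apart from small changes of order, and the log2 fold change was -0.01 (SE 0.29, adjusted p = 0.996). Acacb, the mitochondrial-surface carboxylase whose malonyl-CoA inhibits carnitine palmitoyltransferase, ranged from 122 CPM in mouse 182 to 345 CPM in mouse 156 (log2 fold change 0.14, SE 0.34).

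Elongases showed different spreads. Elovl6, which extends palmitate to stearate, ranged from 168 to 558 CPM (log2 fold change -0.04, SE 0.40), Elovl5 from 1785 to 2949 CPM (log2 fold change -0.08, SE 0.19) and Elovl2, which acts on long polyunsaturated chains, from 631 to 821 CPM (log2 fold change -0.01, SE 0.11). Elovl1, an elongase of very long saturated and monounsaturated chains, ranged from 28.9 to 51.2 CPM (log2 fold change -0.06, SE 0.18). Elovl3, whose liver expression is known to be sex-dependent and rhythmic, reached 431 CPM in Mc1r LKO mouse 182, while the other 7 mice lay between 114 and 292 CPM. Its log2 fold change of 0.33 (SE 0.39) turned to -0.17 without mouse 182.

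Desaturases did not differ by genotype beyond their spread. Scd1 stood at 54743, 36402, 55478 and 38164 CPM in Control and at 41292, 47942, 53184 and 34700 CPM in Mc1r LKO mice. Mice 154, 181 and 157 were the highest and mouse 182 the lowest, with overlapping genotypes (log2 fold change -0.06, SE 0.19, adjusted p = 0.973), and the 95% interval of the fold was 0.712 to 1.29. Scd2, the less abundant paralog, was highest in mouse 193 at 13.3 CPM and lowest in mouse 182 at 2.55 CPM, the next lowest being 6.41 CPM in mouse 181 (log2 fold change -0.19, SE 0.41). The polyunsaturated fatty acid desaturases Fads1 (log2 fold change 0.17, SE 0.20) and Fads2 (0.07, SE 0.14) ranged from 548 to 970 CPM and from 1070 to 1638 CPM.

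Esterification held both members called under the looser rule. Lpin1 (chr12:16535669-16646966, minus strand) encodes lipin 1, a phosphatidate phosphatase that makes diacylglycerol and also acts in the nucleus as a transcriptional coactivator. It stood at 164, 106, 169 and 97.9 CPM in Control and at 258, 361, 166 and 209 CPM in Mc1r LKO mice. The groups overlapped through Mc1r LKO mouse 157, which lay just below Control mouse 181, and the other 3 Mc1r LKO mice were above all Control mice. Control mice averaged 134 ± 37.8 CPM (SD, n = 4) and Mc1r LKO mice 248 ± 83.9 CPM (SD, n = 4), a fitted fold of 1.85 with a 95% interval of 1.25 to 2.74. The log2 fold change was 0.89 (SE 0.25) with an unadjusted p of 0.00573 and an adjusted p of 0.734 in edgeR, and the exact two-sided permutation test gave p = 0.0571. Leaving out 1 mouse gave log2 fold changes between 0.65 (without mouse 156) and 1.04 (without mouse 157).

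Pemt (chr11:59970614-60046489, minus strand) encodes phosphatidylethanolamine N-methyltransferase, which makes phosphatidylcholine in the liver and is known to support secretion of very-low-density lipoprotein. It stood at 217, 227, 216 and 182 CPM in Control and at 265, 259, 241 and 245 CPM in Mc1r LKO mice. In CPM, all 4 Mc1r LKO mice were above all 4 Control mice, and the gap between the groups lay between Control mouse 159 and Mc1r LKO mouse 157. In TPM the groups overlapped, as Control mouse 154 (264 TPM) was above Mc1r LKO mouse 182 (252 TPM). Control mice averaged 210 ± 19.7 CPM (SD, n = 4) and Mc1r LKO mice 253 ± 11.4 CPM (SD, n = 4), a fitted fold of 1.20 with a 95% interval of 1.04 to 1.39. The log2 fold change was 0.27 (SE 0.09) with an unadjusted p of 0.0165 and an adjusted p of 0.734 in edgeR. The exact two-sided permutation test on CPM gave p = 0.0286, the smallest that 4 against 4 mice allow. Without mouse 193 the log2 fold change of 0.21 was under the limit of 0.25. Lpin2, the most abundant of the 3 lipin genes per length (mean 99.8 TPM beside 45.9 TPM for Lpin1), ranged from 391 to 599 CPM. Lpin3 stood at 6.11, 7.72, 4.90 and 6.85 CPM in Control and at 6.71, 6.63, 6.46 and 4.85 CPM in Mc1r LKO mice, low in mice 181 and 182. Lpin2 and Lpin3 had log2 fold changes of 0.09 (SE 0.15) and -0.05 (SE 0.19).

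**Figure D3:**
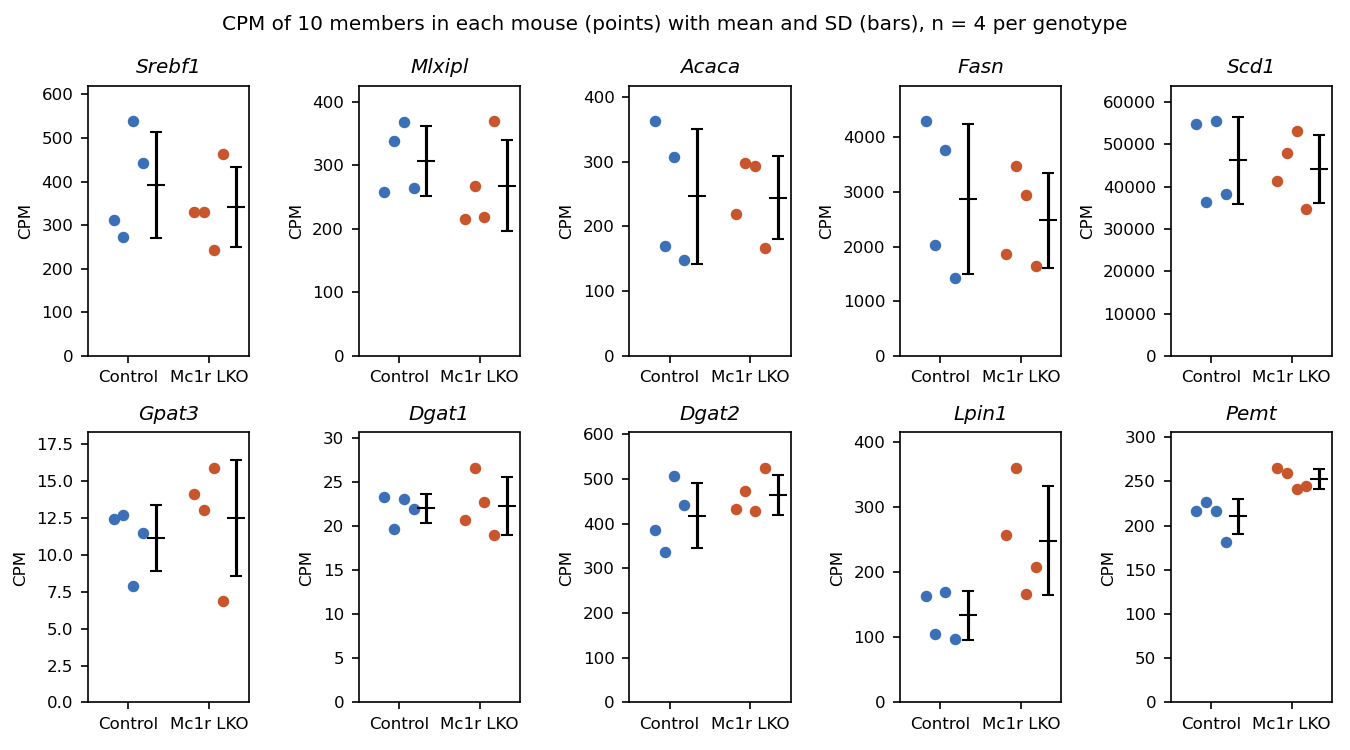
CPM of 10 members in each mouse (blue Control, orange Mc1r LKO), with bars for the mean and SD of 4 mice and axes that start at 0. All 4 Mc1r LKO points of Pemt lie above the Control points. Lpin1 and Gpat3 each overlap through 1 Mc1r LKO mouse, and the other genes overlap widely.

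The windows of the 2 called members are shown for their place beside these values, in the same format and from the same RefSeq build. RefSeq gives 2 starts of Pemt inside the span of the counted gene, and the Lpin1 start likewise lies inside its gene span.
Lpin1 chr12:16610967-16611216, minus strand: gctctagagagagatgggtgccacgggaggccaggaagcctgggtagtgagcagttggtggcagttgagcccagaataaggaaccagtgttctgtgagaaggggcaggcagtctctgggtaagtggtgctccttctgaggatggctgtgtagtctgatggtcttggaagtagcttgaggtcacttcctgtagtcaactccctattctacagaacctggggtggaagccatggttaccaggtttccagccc
Pemt chr11:60040189-60040438, minus strand: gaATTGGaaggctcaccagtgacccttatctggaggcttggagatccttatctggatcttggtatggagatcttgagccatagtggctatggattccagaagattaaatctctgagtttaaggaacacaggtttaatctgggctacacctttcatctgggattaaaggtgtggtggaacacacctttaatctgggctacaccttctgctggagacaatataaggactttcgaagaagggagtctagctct
Pemt chr11:60037006-60037255, minus strand: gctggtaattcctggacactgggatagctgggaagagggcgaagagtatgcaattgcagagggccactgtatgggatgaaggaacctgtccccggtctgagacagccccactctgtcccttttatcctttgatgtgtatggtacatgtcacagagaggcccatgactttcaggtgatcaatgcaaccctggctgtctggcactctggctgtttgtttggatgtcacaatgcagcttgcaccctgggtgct
The Lpin1 window and the second Pemt window hold none of the 3 motifs, and the first Pemt window holds 1 inverted CCAAT box at its far end. Half-sites of the glucocorticoid receptor (AGAACA) were found before 8 members (25.8%), Lpin1 among them, beside 18.2% of all genes.

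The acyltransferases that begin and end triglyceride synthesis did not differ between genotypes beyond their spread. Gpam, mitochondrial glycerol-3-phosphate acyltransferase more abundant per length (mean 278 TPM) than Gpat3 and Gpat4, ranged from 395 CPM in mouse 193 to 1248 CPM in mouse 154 (log2 fold change -0.25, SE 0.34). Gpat3, a microsomal enzyme of the same step, stood at 12.4, 12.7, 7.92 and 11.5 CPM in Control and at 14.1, 13.1, 15.9 and 6.85 CPM in Mc1r LKO mice. Mouse 182 was the lowest of all 8 and the other 3 Mc1r LKO mice were above all Control mice (log2 fold change 0.17, SE 0.25, adjusted p = 0.932). Leaving out 1 mouse moved the log2 fold change of Gpat3 between 0.03 (without mouse 157) and 0.38 (without mouse 182). The unadjusted p in edgeR was 0.906 without mouse 157 and 0.0487 without mouse 182. Of the counted bases of Gpat3, 7.40% also belong to the gene Gm42987 on the same strand. Dgat1, which completes triglyceride with dietary and recycled acyl chains, stood at 23.3, 19.7, 23.1 and 21.9 CPM in Control and at 20.7, 26.6, 22.7 and 19.0 CPM in Mc1r LKO mice. Dgat2, the acyltransferase tied to newly made fatty acids, stood at 387, 336, 506 and 441 CPM in Control and at 432, 473, 427 and 525 CPM in Mc1r LKO mice. Dgat1 had a log2 fold change of 0.01 (SE 0.12), Dgat2 of 0.15 (SE 0.13, adjusted p = 0.884), and the genotypes overlapped in both.

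The remaining 7 members of esterification had log2 fold changes between -0.42 and 0.12. They were Acsl3 and Acsl5, which activate fatty acids to acyl-CoA, Gpat4, Agpat2 and Agpat3 of the first acylation steps, Mogat1, a monoacylglycerol acyltransferase, and Pcyt1a, the regulated step of phosphatidylcholine synthesis from choline. Mogat1 had the lowest value (log2 fold change -0.42, SE 0.35), from 3.07 CPM in mouse 182, the next lowest being 9.13 CPM in mouse 141, to 14.8 CPM in mouse 154. Of counted bases, 5.60% of Acsl3 also belong to Utp14b and 4.03% of Agpat3 to a gene without a symbol.

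Differences among mice of the same genotype were wider for these genes than for liver genes at large. The median SD of log2 CPM within genotype was 0.375 over the members and 0.233 over all genes tested. Set against the other 3 mice of its genotype, mouse 154 was higher in 30 of 38 members (median log2 ratio 0.29), mouse 156 in 32 (0.25), mouse 157 in 29 (0.23) and mouse 181 in 27 (0.17). Mouse 182 was lower in 27 (-0.44), mouse 193 in 28 (-0.32), mouse 159 in 25 (-0.14) and mouse 141 in 24 (-0.11). High and low mice thus occurred in both genotypes, and the same ratio over all genes lay between -0.010 and 0.024. Mouse 193 was the lowest of all 8 in 16 members, and mouse 182 was the lowest in 13 and the highest in 6.

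**Figure D4:**
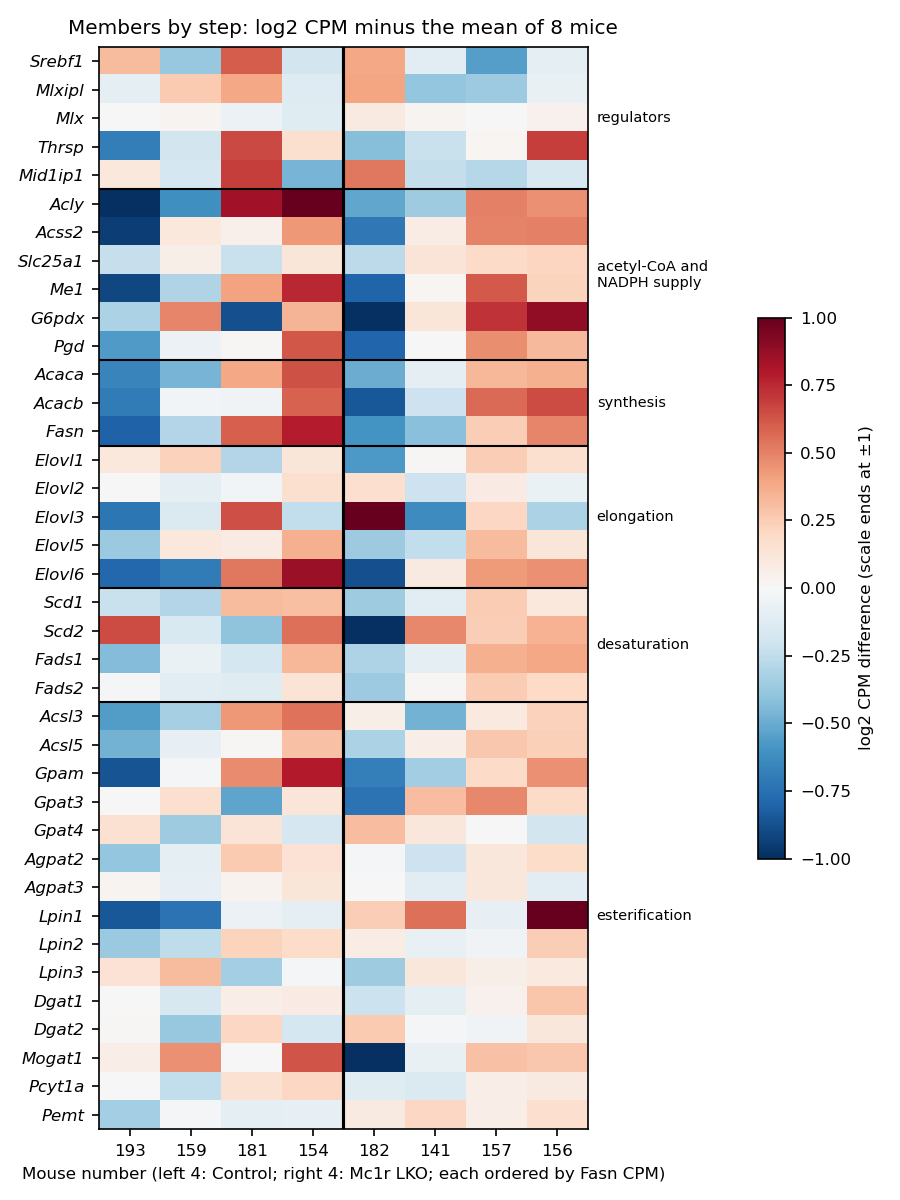
Log2 CPM of each member in each mouse minus its mean over the 8 mice, by step, with Control on the left and Mc1r LKO on the right, each ordered by Fasn. Acly, Me1, Acaca, Elovl6 and Gpam shift from blue to red with Fasn in both genotypes, with low values in mice 193 and 182, and Srebf1, Mlxipl and Dgat2 do not follow that order.

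To describe what the enzymes share, log2 CPM of Fasn was set against each of the other 37 members across the 8 mice, a measure chosen after the data were seen. With Benjamini-Hochberg adjustment over the 37 pairs, 14 members passed an adjusted p under 0.05 in the exact permutation test of Pearson's r, all with positive r, and 9 passed by Spearman's rho. The same 14 were those with r above 0.8, which is 37.8% of the pairs beside 1.12% of the other 13399 genes, so that 14 of the 150 such genes were members. They span every step, namely Thrsp of the regulators, Acly, Acss2, Me1 and Pgd of supply, Acaca and Acacb of synthesis, Elovl5 and Elovl6, Scd1, and Acsl3, Acsl5, Gpam and Agpat2 of esterification.

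Gpam had the strongest relation, with the same order of mice as Fasn (r = 0.98, exact permutation p = 2.48e-05, the smallest that 8 mice allow, adjusted p = 0.000918; rho = 1, exact p = 4.96e-05, adjusted p = 0.00184). Acly (r = 0.97, exact permutation p = 0.000694, adjusted p = 0.0128; rho = 0.90, exact p = 0.00456, adjusted p = 0.0241) and Acaca (r = 0.96, exact permutation p = 0.00129, adjusted p = 0.0159; rho = 0.98, exact p = 0.000397, adjusted p = 0.00734) came next. Leaving out mice 154 and 193, the ends of the Fasn range, r was 0.96 for Gpam, 0.95 for Acly and 0.92 for Acaca, and it was lowest among the 14 for Acss2 (0.68). With values centred within each genotype, r was 0.98, 0.98 and 0.97 for these 3 genes, and 4 mice per genotype are too few for a value within each. The largest gap in Fasn between neighbouring mice was 0.54 on the log2 scale, of a range of 1.60, and lay between mouse 159 and mouse 157 with 2 mice of each genotype on either side. Without mouse 182, 9 members passed, of which 8 were among the 14 and 1, Lpin2, was not. Among the 14, r without mouse 182 was lowest for Acss2 (0.76), and fewer mice give a larger p at the same r.

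The levels of Srebf1 and Mlxipl transcripts did not follow the enzymes. Across the 8 mice, Srebf1 and Fasn had r = -0.18 (exact permutation p = 0.665; rho = -0.17, exact p = 0.703), and Mlxipl and Fasn had r = -0.05 (exact permutation p = 0.904; rho = -0.05, exact p = 0.935). Of 12 pairs of these 2 regulators with Fasn, Acaca, Acly, Scd1, Elovl6 and Gpam, 0 passed at an adjusted or an unadjusted p under 0.05, and the adjusted p was 0.904 for all. All 12 r values were negative with all mice, between -0.39 and -0.05, but without mouse 182 they lay between -0.17 and 0.23, with 8 negative and 4 positive. Leaving out mice 181 and 182, which lay farthest from the median of each regulator, r with Fasn was -0.49 for Srebf1 and -0.09 for Mlxipl, whereas without mouse 182 alone it was -0.03 and 0.19. Transcript levels do not measure the cleaved SREBP-1c or the nuclear ChREBP protein. Of the other members, Dgat2 had r = -0.02 with Fasn, Pemt 0.16 and Lpin1 0.34. With values centred within each genotype, r was 0.04 for Dgat2, 0.46 for Pemt and 0.66 for Lpin1.

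**Figure D5:**
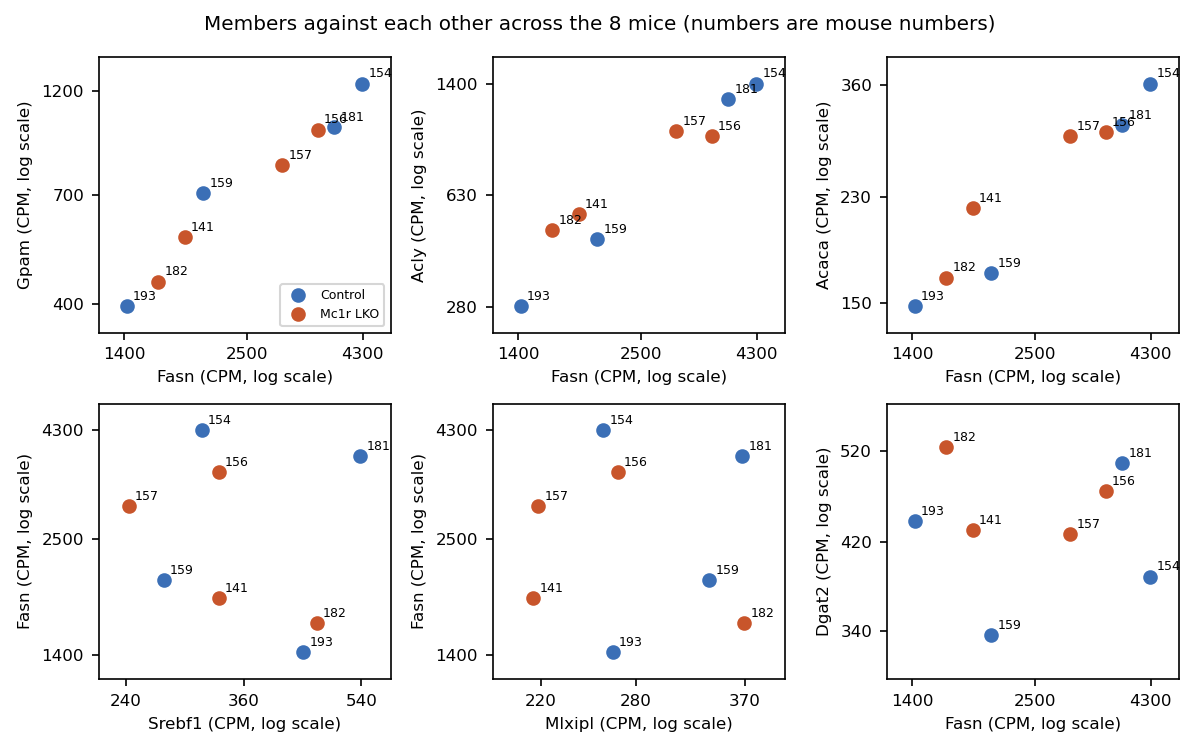
Members against each other across the 8 mice in CPM on log axes, blue Control and orange Mc1r LKO, with mouse numbers. Gpam, Acly and Acaca are higher in mice with more Fasn in both genotypes (r of 0.98, 0.97 and 0.96), whereas Srebf1, Mlxipl and Dgat2 are scattered against it (r of -0.18, -0.05 and -0.02).

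A wider set of 106 pathway genes that are no members, covering SREBP and LXR control, ChREBP partners and targets, other supply, synthesis and esterification genes, gave 96 tested genes, of which 48 had a fold change above 1 and 48 below 1. Of these, 0 passed the adjusted threshold, as did 0% of all genes. An unadjusted p under 0.05 in edgeR was found for 1 of the 96, which also met the looser rule. Under that rule 5.31% of all genes were called, so this count is no result about the set. That gene was Etnk2, an ethanolamine kinase of phosphatidylethanolamine synthesis, with 121, 173, 178 and 195 CPM in Control and 247, 225, 160 and 256 CPM in Mc1r LKO mice. Its groups overlapped through mouse 157 (log2 fold change 0.41, SE 0.18, adjusted p = 0.735). Set against Fasn, 6 of the 96 passed an adjusted p under 0.05 across mice in the exact permutation test of r, and 2 of them, Rxra and Pnpla3, also by rho. With r above 0.8 there were 5 of the 96 (5.21%), beside the 1.12% of all genes given above. Scap, the escort protein of SREBP (r = 0.92), Rpia, a pentose phosphate isomerase (r = 0.92), Cs, citrate synthase (r = 0.90), Pnpla3, a lipid droplet protein (r = 0.93), and Fgf21, a hepatic hormone (r = 0.84), were positive, and Rxra, the dimer partner of LXR, was negative (r = -0.86).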

How the data were processed

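The authors sequenced mRNA with a stranded kit, trimmed reads with Trim Galore 0.6.6, aligned them with STAR 2.7.6a and counted read pairs per gene by strand with featureCounts of Subread 2.0.1, and deposited whole-number counts per gene with the exon length of each gene, without normalization. The file headers name GRCm38, whereas the methods write GRCh38. Groups came from the sample labels. Genes were kept by filterByExpr on the deposited counts (minimum count 10, minimum total 15), normalized by TMM and tested with the quasi-likelihood test of edgeR 4.0.16 in R 4.3.3, with Benjamini-Hochberg adjustment over 13400 genes. TPM used the deposited exon lengths, and log2 CPM a prior count of 2. Total counts set the precision of a low gene, and the 4 mice per group that of a comparison. Alternatives were DESeq2 1.42.0, limma-voom (limma 3.58.1), the edgeR likelihood ratio test, other normalizations and filters, and leaving out mice. The script was tested on simulated data. Members, lists and tests were chosen with earlier results of these data known. Values of each mouse are given for Lpin1 and Pemt, for a gene with a mouse far from its group, and for the members the study measured by qPCR. In its larger set of livers, the study reported Chrebp (Mlxipl), Acc1 (Acaca), Fasn and Gpat3 higher in Mc1r LKO mice by qPCR. It reported Srebp1c (Srebf1) unchanged. That comparison differs from this one in method and in number of mice. No batch is named for these mice.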

Additional observations from a re-analysis of the deposited data

Results flagged for a closer look

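Each member was examined in each genotype for a mouse far from the other 3, as the gap to the nearest mouse over the range of the group (Dixon's test at its 95% critical value). Of 76 groups, 2 passed, where chance would give about 3.8. In Mid1ip1, Mc1r LKO mouse 182 stood at 71.1 CPM and the other 3 between 40.7 and 44.3 CPM. In Lpin3, Mc1r LKO mouse 182 stood at 4.85 CPM and the other 3 between 6.46 and 6.71 CPM. Mouse 182 also held the highest sum of hepatocyte markers (122982 CPM) and the lowest sum of Kupffer cell markers (158 CPM), and the part of either in these values was not tested.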

How the results depend on the processing

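Of 646 values of the log2 fold change of a member under another test, normalization, filter or set of mice, 637 moved by less than 1 SE or kept their call and 4 moved further without a call. The sign changed in 74 values of 24 members, in 8 of these members with all mice in the fit, and in 0 values of Lpin1 and Pemt. The number of genes past the adjusted threshold was 0 with edgeR's quasi-likelihood test, 17 with DESeq2, 8 with the likelihood ratio test and 1 without a filter. The number past the looser rule was 711, and 1140 without a filter. The 2 members past the looser rule became 1 with normalization to library size alone, where the log2 fold change of Pemt was 0.23. Leaving out each mouse gave between 1 and 4 members. There was 1 without mouse 193 or mouse 141, as Pemt was lost. There were 4 without mouse 182, as Mlxipl and Gpat3 were added. The number of all genes past the looser rule also fell without mouse 193 or mouse 141 and rose without mouse 182. These changes in count are therefore no result about the members. Lpin1 kept an unadjusted p between 0.000444 and 0.00722 over the 8 alternatives with all mice, with adjusted p between 0.114 and 0.820. The number of members past the adjusted p for r with Fasn was 14 with all mice and 9 without mouse 182, and 8 passed in both. This alternative was chosen after seeing the data and also has fewer mice. The cause of the other changes was not tested. No paired analysis was possible because the sample labels name no litter or cage by which mice of the genotypes could be paired. No rank by level changed with RPKM in place of TPM.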
